A study of Mus musculus with 26 samples.

Results

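Replication-dependent histone genes encode the bulk histone proteins that package newly made DNA. In the mouse they lie in 4 gene clusters, Hist1 to Hist4, and the members were taken as the protein-coding genes of the GENCODE vM21 annotation (mm10) whose symbol begins with Hist1h, Hist2h, Hist3h or Hist4h. This rule gave 67 genes of the 55487 in the deposited gene table, and every one of the 67 had a row there. By class they were 6 H1, 18 H2a, 18 H2b, 12 H3 and 13 H4 genes.

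H2A, H2B, H3 and H4 form the protein core of the nucleosome, and linker histone H1 binds the DNA between nucleosomes. Transcripts of these genes are not polyadenylated in cycling cells. They end just after a stem-loop that is bound by SLBP and cut with the help of the U7 snRNP, and their amount is tied to S phase, when histones are needed for the new chromatin. RNA was read here with a random-primed total RNA method, RamDA-seq, which does not rely on a poly(A) tail.

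The samples were single blastomeres of C57BL/6 8-cell embryos made by in vitro fertilization and separated by hand, in which RNA and DNA of the same cell were profiled (scRR-seq). The gene table held 9 of these cells, which were cells 1, 6 and 7 of embryo 1 and cells 2, 3, 5, 6, 7 and 8 of embryo 2. No treatment or allele differed between the embryos. Each embryo was 1 biological replicate, so the embryos are compared without a test, and SDs describe the spread between cells of an embryo unless stated otherwise. RNA values are TPM (a length-scaled share of the RNA of a cell, set to the same total in every cell), which keep no read depth. A gene without signal is therefore described as listed at 0.

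The DNA of the same cells differed in replication state between the embryos. Between 0.00385% and 3.54% of the bins with a state were replicated in the cells of embryo 1, and between 62.4% and 80.5% in those of embryo 2. Cells with nearly no replicated bins cannot be told apart here from cells that have finished replication. Cells 1 of embryo 1 and 2 and 3 of embryo 2 carried label numbers 011 to 017 and the other 6 cells 020 to 025. The study used a larger lysis volume for 3 embryo cells and a smaller one for 6. These numbers match the label ranges, but the labels do not give the volume. For embryo cells the paper reported a 3′ bias and fewer detected transcripts with the smaller volume. Mitochondrial genes took 6.29%, 6.77% and 4.28% of the TPM in cells 1, 6 and 7 of embryo 1 and 5.98% to 18.2% in embryo 2, and between 11058 and 13319 genes exceeded 1 TPM per cell. Within label numbers 020 to 025 the mitochondrial share did not overlap between embryos, with 9.31% at the lowest in embryo 2. All 9 markers of the 8-cell blastomere had a mean above 1 TPM, with sums between 1911 and 3431 TPM per cell. Summed markers of cumulus or granulosa cells stayed at or below 0.56 TPM and those of sperm at or below 1.62 TPM.

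The stem-loop that defines these transcripts was found next to most members. The 200 bases after each stop codon were searched on the coding strand of the mm10 (GRCm38.p6) genome for the histone stem-loop, a motif of 16 letters that may vary at its positions 4, 10 and 13. It matched 61 of 67 members (91.0%) and 2 of 21786 other protein-coding genes (0.00918%). Those other genes were H2afx and H2bfm, which also encode histones. The match began 21 to 58 bases after the stop codon, with a median of 30. It was found in 6 of 6 H1, 17 of 18 H2a, 17 of 18 H2b, 11 of 12 H3 and 10 of 13 H4 genes.

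Only 5 forms of the 16 letters occurred, and they separated H4 from the other classes. One example of each form is shown with 5 flanking bases on either side, and capitals mark the stem-loop match.
Hist1h2ap, chr13:21833024-21833049, minus strand: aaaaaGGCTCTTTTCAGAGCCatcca
Hist1h2bk, chr13:22036295-22036320, plus strand: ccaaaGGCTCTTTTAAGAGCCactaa
Hist2h2ac, chr3:96220413-96220438, minus strand: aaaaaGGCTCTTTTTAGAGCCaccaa
Hist1h4n, chr13:21831793-21831818, minus strand: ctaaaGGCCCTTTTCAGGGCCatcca
Hist1h4i, chr13:22040961-22040986, minus strand: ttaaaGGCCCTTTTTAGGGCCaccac

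The form of Hist1h2ap was the commonest, in 41 members of the classes H1, H2a, H2b and H3. The form of Hist1h2bk was carried by 9 members and that of Hist2h2ac by 1. All 10 matching H4 genes had a GGCCC stem, in 8 genes as in Hist1h4n and in 2 as in Hist1h4i, whereas all 51 matching genes of the other classes had a GGCTC stem. Of the 6 members without a match, Hist1h2an, Hist1h3g and Hist1h4a lacked it by 1 letter and Hist1h4b and Hist1h4j by 2. The nearest stretch after the stop codon of Hist2h2be differed in 4 letters.

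Promoters showed a class pattern as well. RefSeq promoter windows (GRCm38.p6, 250 bases before to 50 bases after the start) were matched for 62 of 67 members. Within the 250 upstream bases, on either strand, CCAAT occurred in 82.3% of members against 33.9% of all 32851 promoters, and TATAA in 64.5% against 22.8%. CCAAT was present in all 6 H1, all 18 H2a and all 16 H2b windows, in 8 of 10 H3 windows and in 3 of 12 H4 windows. The octamer ATTTGCAT occurred in 7 of 18 H2a and 6 of 16 H2b windows, in no window of the other classes and in 1.601% of all promoters. The sequence AAACACA, known from H1 promoters, was found in 5 of 6 H1 windows, in 2 H2a and 2 H2b windows, and in 6.25% of all promoters. These are matches of letters only, and binding was not measured. The H2a and H2b counts are not separate observations. Of these genes, 12 H2a and 12 H2b genes form divergent pairs on opposite strands, with 175 to 305 bases between their starts. Where both partners have a window, their upstream bases overlap, and the same match can count for both. The percentages of members include such shared matches.

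The promoters of the leading H2a, H2b and H4 genes show the contrast, with matches of CCAAT, of the octamer and of TATAA on either strand in capitals.
Hist1h2ap, chr13:21833426-21833725, minus strand: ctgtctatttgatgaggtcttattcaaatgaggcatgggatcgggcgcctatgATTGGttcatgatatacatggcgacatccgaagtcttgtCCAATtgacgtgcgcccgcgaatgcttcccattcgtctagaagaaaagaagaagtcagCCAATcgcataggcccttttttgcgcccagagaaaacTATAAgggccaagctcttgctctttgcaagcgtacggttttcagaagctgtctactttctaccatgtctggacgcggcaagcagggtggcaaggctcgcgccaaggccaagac
Hist1h2bk, chr13:22035571-22035870, plus strand: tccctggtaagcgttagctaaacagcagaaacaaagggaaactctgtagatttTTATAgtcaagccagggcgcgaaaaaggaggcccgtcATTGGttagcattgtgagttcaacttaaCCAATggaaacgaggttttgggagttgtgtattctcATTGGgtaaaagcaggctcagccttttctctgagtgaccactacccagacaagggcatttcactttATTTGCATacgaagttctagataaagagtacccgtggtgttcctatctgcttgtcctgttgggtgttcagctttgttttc
Hist1h4n, chr13:21832148-21832447, minus strand: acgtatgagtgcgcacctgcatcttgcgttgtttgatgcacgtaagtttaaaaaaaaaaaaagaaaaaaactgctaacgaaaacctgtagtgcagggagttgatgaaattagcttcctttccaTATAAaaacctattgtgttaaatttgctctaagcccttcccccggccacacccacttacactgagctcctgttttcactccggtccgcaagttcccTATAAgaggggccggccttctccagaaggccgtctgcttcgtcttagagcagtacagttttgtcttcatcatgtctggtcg

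The window of Hist1h2ap held CCAAT and TATAA matches without the octamer, that of Hist1h2bk held all 3 motifs, and that of Hist1h4n held TATAA matches alone.

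The members are so alike that reads cannot always be assigned to 1 gene. Median coding identity between members of a class was 97.2% in H3, 96.6% in H2b, 93.9% in H4 and 91.5% in H2a, but 73.5% in H1, where no pair exceeded 84.6%. In 5 pairs the coding sequences were identical. A median of 38.5% of the 100-base stretches of a member's transcript model also occurred, on either strand, in the transcripts of another gene. In 29 members this share exceeded 50%. RSEM divides reads from shared stretches among the candidates, so sums over a class are firmer than values of single copies. Matches to antisense transcripts count in this share, and reads there are shared only if counting ignored strand.

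Annotated models also differed, which matters because TPM is per length. Of the members, 21 had a model ending within 100 bases after the stem-loop, 15 had a model of the coding part alone, and 20 had a model running more than 100 bases past the stem-loop, up to the 7425-base model of Hist1h1d. The median of the mean TPM was 11.8 in the first group, 14.6 in the second and 2.07 in the third. A transcript that ends at the stem-loop is spread over the longer model in the third group, and how much of its lower level comes from that was not tested.

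All members together took a small part of the RNA. Their summed TPM was 993 in cell 1, 827 in cell 6 and 215 in cell 7 of embryo 1, and the 6 cells of embryo 2 ranged from 679 to 1905 with a median of 1267. This was 0.0215% to 0.0993% of all TPM in embryo 1 and 0.0679% to 0.191% in embryo 2. Cells 2, 3 and 6 of embryo 2 lay above every cell of embryo 1, and its cells 5, 7 and 8 lay within the range of embryo 1.

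On the log2 scale the mean of embryo 2 was 1.08 higher than that of embryo 1 (pooled SD between cells 0.825), a 2.11-fold ratio of geometric means. Embryo 1 cell 7 weighed heavily in it, since the difference was 0.39 without that cell. Within label numbers 011 to 017 the difference was 0.86 and within 020 to 025, where the mitochondrial share was also higher in every cell of embryo 2, it was 1.19. With the TPM rescaled without mitochondrial genes it was 1.18. Over the same cells, the summed TPM of 12 genes of histone variants outside the 4 clusters, such as H3f3a and H2afz, was between 1792 and 2953. Their difference between embryos was -0.13 (pooled SD 0.26), without cell 7 of embryo 1 -0.28. The sum is weighted to H2afz and H3f3a, with means of 809 and 750 TPM. Of the 10 variant genes with a mean above 1 TPM, 3 were higher and 7 lower in embryo 2. This list includes H2afx, one of the genes with a stem-loop match.

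The classes differed in level by more than 10-fold. Mean summed TPM over the 9 cells was 577 for H2a, 229 for H2b, 152 for H4, 76.0 for H3 and 42.9 for H1. As a share of the summed histone TPM, H2a made up 50.7 ± 10.4%, H2b 22.3 ± 6.26%, H4 15.3 ± 3.63%, H3 7.43 ± 1.95% and H1 4.30 ± 1.92% (mean ± SD, n = 9 cells). These SDs are over the cells of both embryos, so they also hold the difference between the embryos. H2a ranked first in 8 of 9 cells and was passed by H2b in cell 7 of embryo 1, where the shares were 30.9% and 34.8%. H2a exceeded H4 in every cell, by 1.57 to 7.03 times, and H3 was below H4 in every cell, at 0.33 to 0.60 times its sum.

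**Figure D1:**
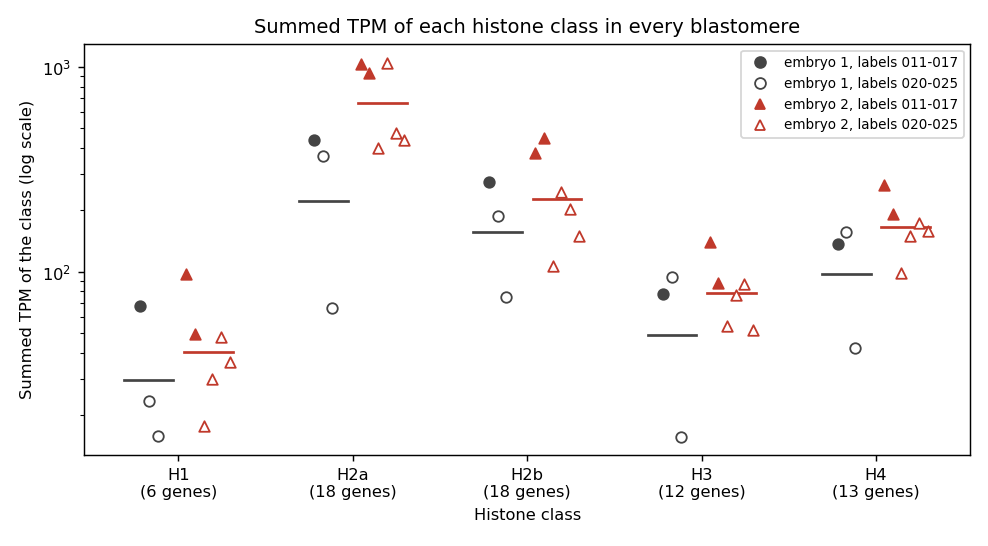
Summed TPM (log scale) of the genes of each histone class in 9 blastomeres, circles for embryo 1 and triangles for embryo 2, filled for label numbers 011 to 017 and open for 020 to 025. Horizontal lines are means on the log2(TPM + 1) scale, and embryo 1 cell 7 is the lowest cell in every class, with H2a at 66.4 TPM.

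The differences between embryos were then compared by class. For H2a, the summed TPM was 439, 366 and 66.4 in cells 1, 6 and 7 of embryo 1 and 403, 705 and 1047 at the lowest, median and highest cell of embryo 2. The difference of 1.58 exceeded the pooled SD of 0.97 and was 0.72 without cell 7 of embryo 1. Within the label ranges it was 1.15 and 1.79. Cells 2, 3, 6 and 7 of embryo 2 lay above every cell of embryo 1, and cells 5 and 8 lay between its cells 1 and 6.

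For H4, the sums were 136, 157 and 42.4 TPM in embryo 1 and 97.8, 165 and 264 TPM at the lowest, median and highest cell of embryo 2. The difference was 0.76 (pooled SD 0.67). It came to 0.17 without cell 7 of embryo 1.

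For H2b, H3 and H1 the embryos differed by less than the pooled SD. H2b sums were 273, 187 and 74.8 TPM in embryo 1 against a median of 224 TPM in embryo 2 (106 to 448), a difference of 0.53 (pooled SD 0.84). H3 sums were 77.7, 93.8 and 15.6 TPM against a median of 81.8 TPM (52.0 to 139), a difference of 0.67 (pooled SD 0.86). H1 sums were 68.0, 23.3 and 15.8 TPM against a median of 41.9 TPM (17.6 to 97.8), a difference of 0.45 (pooled SD 0.89). Without cell 7 of embryo 1 these values were 0.0013 for H2b, -0.12 for H3 and 0.021 for H1, so the sign for H3 turned.

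Shares within a cell do not depend on how the cell was scaled. The H2a share was 44.2%, 44.3% and 30.9% in embryo 1 and 48.4% to 67.7% in embryo 2, so every cell of embryo 2 lay above every cell of embryo 1, by 16.3 percentage points on average (pooled SD 6.997) and by 11.8 without cell 7 of embryo 1. The H2b share was lower in embryo 2, at 19.3 ± 3.93% (SD, n = 6 cells) against 28.3 ± 6.16% (SD, n = 3 cells), with overlap between the embryos, and its difference of -8.96 points became -5.70 without that cell. Shares in a cell add up to the whole, so a higher H2a share comes with lower shares of other classes. The summed H2b TPM was 0.53 higher in embryo 2 on the log2 scale (pooled SD 0.84). H4 took 14.2 ± 3.55% and 17.5 ± 3.30%, H3 6.75 ± 1.56% and 8.81 ± 2.21%, and H1 3.62 ± 1.32% and 5.67 ± 2.48% in embryo 2 and embryo 1. The difference for H4 was within its pooled SD, and those for H3 and H1 exceeded theirs by little, at -2.06 (pooled SD 1.77) and -2.05 (pooled SD 1.73) percentage points. Without cell 6 of embryo 1 the difference for H3 was -0.80, and without its cell 7 that for H1 was -1.21.

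Much of the H2a signal was assigned to 1 gene, Hist1h2ap, although 92.2% of its 100-base stretches also occurred in another gene. With Hist1h2ap and its copy Hist1h2ao left out, the H2a share was 19.8 ± 7.47% in embryo 1 and 31.0 ± 4.49% in embryo 2, and the embryos overlapped by a small margin (24.9% at the highest in embryo 1, 24.7% at the lowest in embryo 2). Without this pair, the summed TPM of the other 65 members differed by 0.83 (pooled SD 0.85).

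**Figure D2:**
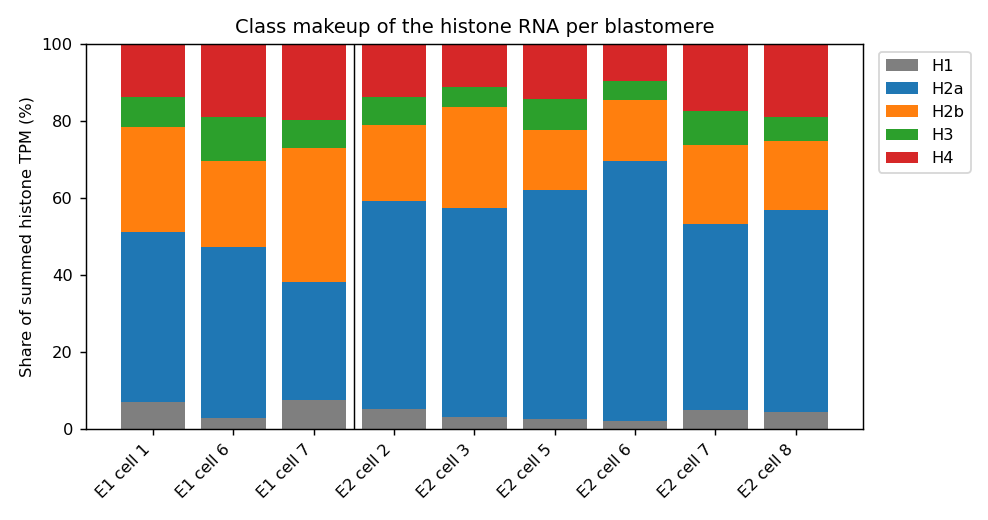
Share of the summed histone TPM (%) taken by each class in 9 blastomeres (E, embryo), with a line between the embryos. H2a is 30.9% to 44.3% in the 3 cells of embryo 1 and 48.4% to 67.7% in the 6 cells of embryo 2.

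Single members were read against all genes with a mean above 1 TPM over the cells, of which there were 13648, 53 of the 67 members among them. The mean log2(TPM + 1) was at least 1 higher in embryo 2 for 15 members, all among these 53 (28.3% of them), where the share over all genes was 7.69%. It was at least 1 lower for 4 members (7.55% of the 53), where the share over all genes was 10.7%. Of the 15, 4 had a mean of at most 1 TPM in embryo 1 and so entered only through embryo 2, as did 444 of the 1049 genes called among all.

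The count of 15 turned on single cells and on the pseudocount. It was 9 without cell 7 of embryo 1 (6.87% of all genes) and 29 without cell 1 of embryo 1 (13.5% of all genes), and pseudocounts of 0.1 and 10 gave 32 and 4. The median difference over the 67 members was 0.54, beside -0.04 over all genes above 1 TPM, and it was 0.0 without cell 7 of embryo 1.

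Among the 15 were 8 H2a, 4 H2b, 1 H3, 2 H4 and no H1 genes. The 4 in the other direction were the H2a genes Hist3h2a and Hist1h2ao, the H2b gene Hist1h2bj and the H4 gene Hist1h4f. Hist1h2ao has the same coding sequence as Hist1h2ap, 1 of the 15, and the sum of the pair was 1.55 higher. Without cell 7 of embryo 1 the difference for Hist1h2ao was 0.0. Only Hist1h2ap was higher in every cell of embryo 2 than in every cell of embryo 1, as were 0.843% of all genes. No member was lower in every cell, as were 2.51% of all genes.

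**Figure D3:**
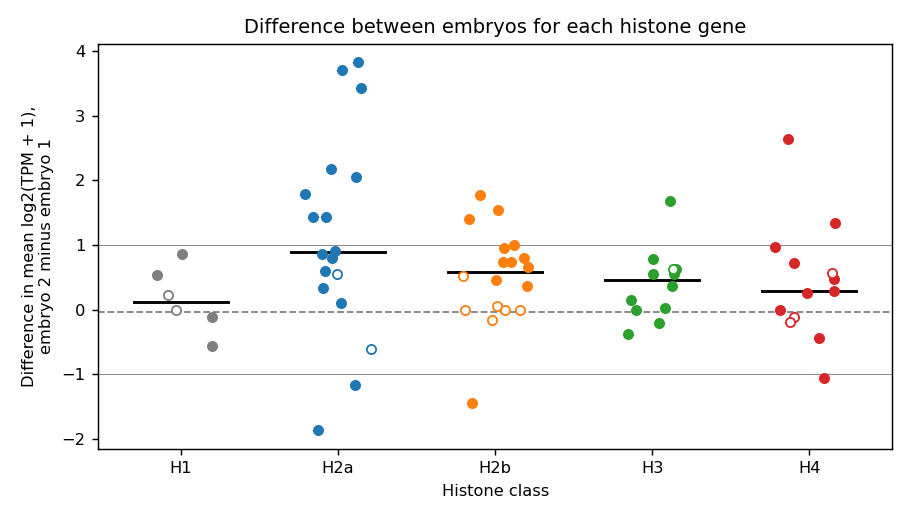
Difference in mean log2(TPM + 1), embryo 2 minus embryo 1, for each of the 67 genes by class, filled points for genes with a mean above 1 TPM and open points for the others. Black lines are class medians (0.88 for H2a, 0.12 for H1), the dashed line is the median of all genes above 1 TPM, and thin lines mark a difference of 1.

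Detection of members was partial in every cell. At TPM above 1, 43, 36 and 21 members were counted in cells 1, 6 and 7 of embryo 1 and 53, 49, 31, 41, 40 and 40 in cells 2, 3, 5, 6, 7 and 8 of embryo 2. Only 9 members were above 1 TPM in all 9 cells, and 4 were listed at 0 in all of them. Of the 603 values, 211 (35.0%) were 0. After identical copies were summed this was 173 of 558 (31.0%), and after members with at least 95% coding identity were summed it was 54 of 189 (28.6%).

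**Figure D4:**
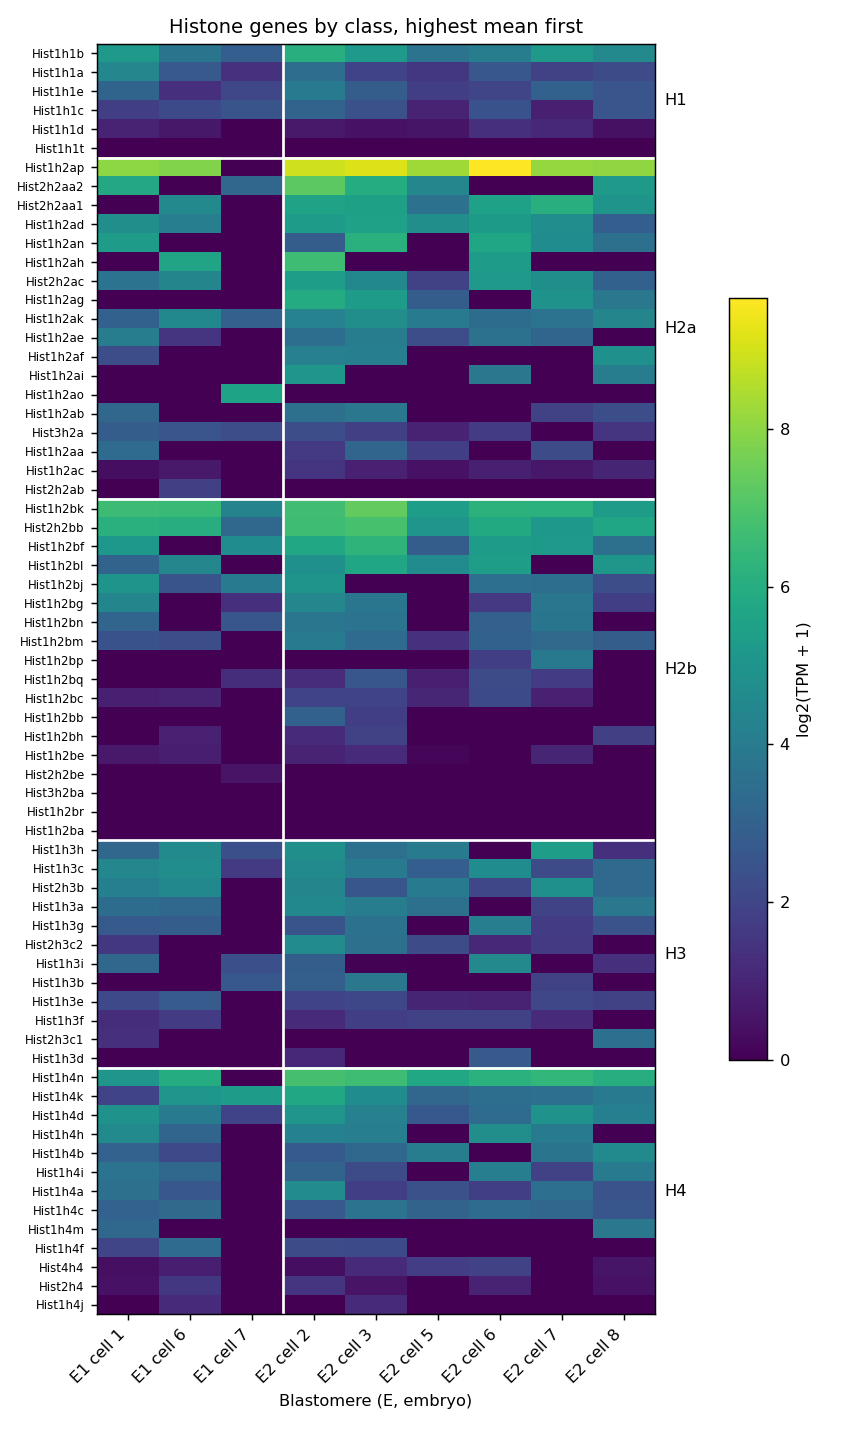
log2(TPM + 1) of the 67 members in 9 blastomeres, grouped by class with the highest mean first, and a white line between the embryos. Hist1h2ap leads with up to 804 TPM in embryo 2 cell 6, and cell 7 of embryo 1 has 21 members above 1 TPM.

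Among the linker histones, Hist1h1b (H1.5) led with 36.2, 12.2 and 6.33 TPM in cells 1, 6 and 7 of embryo 1 and 11.8 to 64.8 TPM in embryo 2, where the median was 29.2. It supplied 62.6% of the mean H1 level, and none of its 100-base stretches occurred in another gene. The embryos overlapped, with a difference of 0.85 (pooled SD 0.97), or 0.32 without cell 7 of embryo 1.

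Hist1h1a (H1.1) was 20.9, 5.56 and 1.59 TPM in embryo 1 and 1.97 to 10.0 TPM over the cells of embryo 2. Its mean log2 value was lower in embryo 2, by 0.56 on the log2 scale, less than its pooled SD of 1.00. Its direction turned without cell 1 of embryo 1, to 0.24. Hist1h1e (H1.4) ranged from 1.55 to 7.59 TPM in embryo 1 and from 2.42 to 15.03 TPM in embryo 2, and Hist1h1c (H1.2) from 2.43 to 4.75 and from 0.80 to 7.35 TPM. Hist1h1d (H1.3) stayed at or below 1.56 TPM on its 7425-base model. Hist1h1t, the testis form of H1, was listed at 0 in all 9 cells.

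Among the core histones, Hist1h2ap had the highest TPM and was assigned 61.5% of the mean H2a level. Reads that it shares with near-identical copies were divided by RSEM. It lies at chr13:21833026-21833507 on the minus strand as a single exon. It was 256 and 227 TPM in cells 1 and 6 of embryo 1, was listed at 0 in cell 7, and was 263 to 804 TPM in embryo 2 with a median of 401. Among all genes it ranked 212 in cell 6 of embryo 2, where it reached 51.9% of the histone TPM.

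The zero in cell 7 of embryo 1 was matched by its copy. Hist1h2ao has the same 390 coding bases and was listed at 0 in the 8 other cells but reached 47.6 TPM in cell 7. The sum of the pair was therefore 256, 227 and 47.6 TPM in embryo 1 against 263 to 804 TPM in embryo 2, a difference of 1.55 (pooled SD 0.90), or 0.78 without cell 7 of embryo 1, where Hist1h2ap alone gave 3.42 (pooled SD 2.504). The pair did not overlap between embryos, and the nearest cells were cell 1 of embryo 1 and cell 8 of embryo 2.

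The Hist2 copies Hist2h2aa1 and Hist2h2aa2 traded places in the same way. In cells 1 and 7 of embryo 1 the signal was in Hist2h2aa2 alone (56.1 and 8.16 TPM), and in cell 6 of embryo 1 and cells 6 and 7 of embryo 2 it was in Hist2h2aa1 alone (22.6, 45.4 and 66.4 TPM). Summed, they were 56.1, 22.6 and 8.16 TPM in embryo 1 and 32.5 to 197 TPM over the cells of embryo 2, a difference of 1.66 (pooled SD 1.04), with overlap, and 0.99 without cell 7 of embryo 1.

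**Figure D5:**
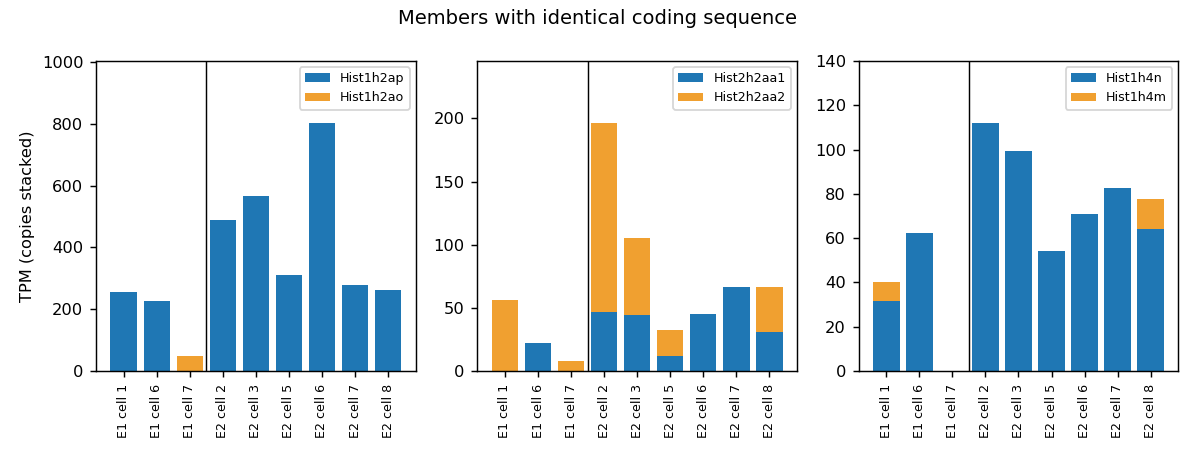
TPM of 3 pairs of members with identical coding sequence in 9 blastomeres, stacked by copy. Hist1h2ao carries the signal of its pair in embryo 1 cell 7 alone (47.6 TPM), and the Hist2h2aa pair is divided differently between cells.

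Of the other H2a genes, Hist1h2ad was 26.6, 16.4 and 0 TPM in embryo 1 and 6.30 to 45.5 TPM over the cells of embryo 2 (difference 1.78, pooled SD 1.61). Without cell 7 of embryo 1, which was listed at 0, its difference was 0.30, less than the pooled SD of 0.91, and without cell 1 it was 2.69. Hist2h2ac was 11.8, 20.3 and 0 TPM in embryo 1 and 2.70 to 40.4 TPM over the cells of embryo 2 (difference 1.43, pooled SD 1.72), and 0.079 without cell 7 of embryo 1. Hist3h2a went the other way, with 6.16, 4.77 and 3.92 TPM in embryo 1 against a median of 2.05 TPM in embryo 2 (0 to 3.93), a difference of -1.17 (pooled SD 0.70). Its highest cell in embryo 2, cell 2 with 3.93 TPM, lay just above the lowest of embryo 1. The 12 Hist1 H2a genes joined at 95% coding identity summed to 356, 316 and 54.3 TPM in embryo 1 and 363 to 965 TPM over the cells of embryo 2 (difference 1.601, pooled SD 0.98), so that the lowest cell of embryo 2 was just above the highest of embryo 1. Without cell 7 of embryo 1 the difference was 0.73.

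H2b was led by Hist1h2bk, with 97.3, 90.03 and 19.1 TPM in embryo 1 and 38.8 to 159 TPM over the cells of embryo 2. It was assigned 33.5% of the mean H2b level, and 70.8% of its 100-base stretches also occurred in another gene. Hist2h2bb followed with 68.6, 64.3 and 8.47 TPM and with 31.5 to 115 TPM. Both were above 1 TPM in all 9 cells and overlapped widely between the embryos, with differences of 0.36 (pooled SD 0.95) and 0.74 (pooled SD 1.08), which turned to -0.38 and -0.20 without cell 7 of embryo 1. The whole sequence of the Hist2h2bb model also lies in the antisense transcripts of Gm20628, which reached at most 3.58 TPM, and whether counting used strand is not given in the sources used here.

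Hist1h2bf was 34.2, 0 and 24.8 TPM in embryo 1 and 6.18 to 76.3 TPM over the cells of embryo 2, and Hist1h2bl was 7.39, 21.1 and 0 TPM in embryo 1 and 0 to 50.5 TPM over the cells of embryo 2. Their differences of 1.54 and 1.77 were below the pooled SDs of 1.89 and 2.17. That of Hist1h2bf was -0.097 without cell 6 of embryo 1, and that of Hist1h2bl was 0.51 without cell 7. The copies Hist1h2bq and Hist1h2br were quantified on spliced models only, because the single-exon transcript of each was not in the transcript table. Hist1h2bq stayed at or below 4.93 TPM and Hist1h2br was listed at 0 throughout. Hist1h2ba, the testis form of H2B, was listed at 0 too, and so was Hist3h2ba. The H2a gene Hist1h2aa, also a germ-cell form, was above 1 TPM in 5 cells, at up to 9.49 TPM.

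No H3 gene led its class as clearly. Hist1h3h (mean 14.6 TPM), Hist1h3c (14.5), Hist2h3b (13.1) and Hist1h3a (9.28) together supplied 67.8% of the mean H3 level. In this order, 92.0%, 28.4%, 100% and 32.2% of their 100-base stretches also occurred in another gene. Hist1h3c was 21.3, 25.2 and 2.15 TPM in embryo 1 and 3.62 to 24.6 TPM over the cells of embryo 2. Hist1h3h was 8.16, 23.7 and 4.10 TPM in embryo 1 and 0 to 41.0 TPM over the cells of embryo 2. Hist2h3b was 16.8, 21.9 and 0 TPM against 3.17 to 27.8 TPM, and Hist1h3a was 9.55, 8.63 and 0 TPM against 0 to 21.9 TPM. The embryos overlapped for all 4, and no difference reached the pooled SD.

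The identical pair Hist2h3c1 and Hist2h3c2 summed to 3.46 TPM in cell 1 of embryo 1, was listed at 0 in cells 6 and 7, and was 1.10 to 24.04 TPM in embryo 2 (difference 2.06, pooled SD 1.32). All 12 H3 genes fall into 1 group at 95% coding identity, so the class sum is also the sum of near-identical copies.

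H4 was led by Hist1h4n, at chr13:21831767-21832196 and so a neighbour of Hist1h2ap on the same strand. It was 31.8, 62.2 and 0 TPM in embryo 1 and 54.1 to 112 TPM over the cells of embryo 2, with a median of 76.9. Hist1h4n was assigned 42.3% of the mean H4 level, and 80.7% of its 100-base stretches also occurred in another gene. With its identical copy Hist1h4m, which had signal in cell 1 of embryo 1 (8.43 TPM) and cell 8 of embryo 2 (13.3 TPM), the values were 40.3, 62.2 and 0 TPM and 54.1 to 112 TPM (difference 2.57, pooled SD 1.79, and 0.68 without cell 7 of embryo 1). The embryos overlapped, because cell 5 of embryo 2 was below cell 6 of embryo 1. Unlike for the Hist1h2ap pair, summing did not fill the 0 in cell 7 of embryo 1, and Hist1h4n alone differed by 2.63 with that cell and by 0.80 without it.

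In that cell the H4 signal was in Hist1h4k instead. Hist1h4k was 2.81, 33.0 and 39.5 TPM in embryo 1 and 8.19 to 53.7 TPM over the cells of embryo 2. The 10 H4 genes that join at 95% coding identity, both of these among them, summed to 106, 140 and 39.5 TPM in embryo 1 and 90.1 to 230 TPM over the cells of embryo 2 (difference 0.79, pooled SD 0.63, and 0.26 without cell 7 of embryo 1). Hist1h4d, none of whose 100-base stretches lay in another gene, was 28.9, 14.3 and 2.88 TPM in embryo 1 and 5.31 to 31.6 TPM over the cells of embryo 2 (difference 0.47, pooled SD 1.12, and -0.35 without cell 7 of embryo 1). Hist1h4h was 22.98, 7.81 and 0 TPM and 0 to 26.4 TPM.

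By cluster, 54 of the 67 members lie in Hist1 on chromosome 13, in a block of 23 genes at chr13:21715763-22043676 and a block of 31 genes at chr13:23531050-23934851. The smaller block was the higher. It summed to 556, 558 and 148 TPM in embryo 1 and 490 to 1194 TPM over the cells of embryo 2 (difference 1.15, pooled SD 0.78, and 0.52 without cell 7 of embryo 1). The block of 31 genes summed to 273, 130 and 46.0 TPM and to 101 to 350 TPM (difference 0.77, pooled SD 0.90, and 0.10 without that cell).

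The 10 Hist2 genes at chr3:96219865-96270132 summed to 157, 134 and 17.1 TPM in embryo 1 and 85.2 to 383 TPM over the cells of embryo 2 (difference 1.26, pooled SD 1.13), and the difference was 0.26 without cell 7 of embryo 1. The 2 Hist3 genes on chromosome 11 summed to at most 6.16 TPM. Hist4h4, the 1 gene of Hist4 on chromosome 6, was at most 2.77 TPM.

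H2a and H2b genes often share a promoter region, since 12 H2a genes and 12 H2b genes formed divergent pairs with 175 to 305 bases between their starts (median 258.5). The TPM listed for the partners differed, but shared reads and unlike models limit how far these values can be compared. In the 10 pairs with signal from the H2b gene, the H2a gene had the higher mean TPM in 5 and the H2b gene in 5. Outside these 10, the H2b genes Hist1h2br and Hist1h2ba were listed at 0, and their partners Hist1h2ap and Hist1h2aa were higher. Hist1h2ap stood at a mean of 355 TPM beside Hist1h2br at 0, Hist2h2ac at 18.4 TPM beside Hist2h2be at 0.047 TPM, and Hist1h2bk at 76.8 TPM beside Hist1h2ah at 20.7 TPM. Hist1h2br was quantified on a spliced model only, and 99.8% of its 100-base stretches also occurred in another gene. This share was 89.5% for Hist1h2ah, and the model of Hist2h2be has 2620 bases. The part of these limits in the differences was not tested. Hist1h2bf and Hist1h2ad were close, at 31.0 and 24.8 TPM.

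The DNA of the same cells gave a called state for the loci themselves. All 4 bins of 40 kb over the first Hist1 block and all 7 over the second were called unreplicated in the 3 cells of embryo 1. They were called replicated in the 6 cells of embryo 2. The calls in embryo 1 cannot tell loci that had yet to replicate from loci that had finished. The Hist3 bin was replicated in 5 cells of embryo 2 and unreplicated in cell 3. Of the 72 states over members in embryo 2, 71 were replicated, where 62.4% to 80.5% of all bins of these cells were. Most of these states are of neighbouring bins in the Hist1 blocks and all are from 1 embryo, so they are not 72 separate observations. No bin of the table overlapped Hist2. Bins within 200 kb of it were called unreplicated in embryo 1 and, where they had data, replicated in embryo 2, while cell 7 had no data in 4 of 7. Hist4, on chromosome 6, was not analysed here.

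The order of the cells of embryo 2 by replicated share was not their order by histone RNA. Cell 6, with the lowest share replicated (62.4%), had a summed TPM of 1547 and the highest H2a share (67.7%). Cell 3 at 74.2% had 1710 TPM and cell 2 at 77.8% had 1905 TPM. Cells 5, 8 and 7 at 76.9%, 78.7% and 80.5% had 679, 832 and 986 TPM. Cells 2 and 3 were the cells of this embryo with label numbers below 020, and cells 5, 7 and 8 had the highest mitochondrial shares, from 13.3% to 18.2%. The part of these in the histone sums was not tested.

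The machinery that makes histone mRNA was set beside the members, with a list of 34 genes for transcription and 3′ processing of which 33 matched a symbol of the annotation and 32 were above a mean of 1 TPM. The remaining name, Symplk, matched no symbol, and symplekin was not analysed here. Of the 32, 17 were higher and 15 lower in embryo 2, and the median difference was 0.03. Over all 33 the median was 0.0063, and -0.29 without cell 7 of embryo 1. At least 1 higher were 3 genes and at least 1 lower were 3, where the shares over all genes were 7.69% and 10.7%. Casp8ap2 was higher in every cell of embryo 2, and Srrt, which acts in RNA 3′ end formation and is named here after its values were seen, was lower in every cell (51.9 to 60.0 against 25.6 to 45.9 TPM). Over all genes, 0.843% were higher and 2.51% lower in every cell.

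Slbp, which binds the stem-loop, was 107, 137 and 57.4 TPM in embryo 1 and 89.8 to 207 TPM over the cells of embryo 2 (difference 0.60, pooled SD 0.51), with overlap, and the difference was 0.25 without cell 7 of embryo 1. Casp8ap2 (FLASH), needed for 3′ end cleavage, was 15.3, 12.9 and 2.88 TPM in embryo 1 and 15.98 to 37.3 TPM over the cells of embryo 2, with no overlap (difference 1.37, pooled SD 0.74). Its nearest cells were 15.3 and 15.98 TPM, and the difference was 0.72 without cell 7 of embryo 1. Npat, the coactivator of histone transcription, was 33.7, 16.9 and 13.7 TPM against 8.60 to 26.3 TPM (difference -0.46, pooled SD 0.54).

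Of the U7 snRNP proteins, Lsm10 was 2.13, 6.07 and 5.06 TPM in embryo 1 and was listed at 0 in 4 cells of embryo 2, with 4.55 and 0.87 TPM in cells 2 and 3. Its difference was -1.79 (pooled SD 0.91), 0.04 within label numbers 011 to 017 and -2.71 within 020 to 025. Lsm11 ranged from 2.09 to 4.47 TPM and from 0.65 to 4.42 TPM. Cdk2, the kinase that phosphorylates NPAT, was 1.06 higher (pooled SD 0.81) and its partner Ccne2 1.04 higher (pooled SD 1.12) in embryo 2. Without cell 7 of embryo 1 the difference for Ccne2 was 0.65, and without cell 6 that for Cdk2 was 0.79, below its pooled SD. The difference was -2.06 (pooled SD 0.97) for Tut4, a terminal uridylyltransferase, and -1.21 (pooled SD 0.96) for the cleavage factor Cstf2, or -0.77 without cell 1 of embryo 1.

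A list of histone chaperone and assembly genes held 19 genes, all above 1 TPM. In embryo 2, 11 were higher and 8 lower, beside 6503 higher and 7145 lower of all genes above 1 TPM. The median was 0.21, and -0.02 without cell 7 of embryo 1. One gene was at least 1 higher and 1 at least 1 lower. Npm2, an oocyte and embryo chaperone, differed by 1.26 (pooled SD 1.03), or 0.62 without cell 7 of embryo 1. Chaf1b, a subunit of chromatin assembly factor 1, differed by -1.07 (pooled SD 0.58), or -0.69 without that cell.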

How the data were processed

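Single blastomeres of 8-cell embryos were profiled for RNA (RamDA-seq) and DNA. The authors deposited TPM per gene and per transcript, made with the ramdaq pipeline (Hisat and RSEM) on mm10 with GENCODE M25. They deposited a replication state score for bins of 40 kb, from AneuFinder after alignment with BWA 0.7.17-r1188 per the submitters' processing notes. The state table used here holds no chromosome 6, 10, X or Y. In each of the tables, 14 columns of other samples were not used. The headers of all RNA columns name the same cell, so columns were assigned by their closing label number.

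From these, members were summed by class, block and copy group. Differences are of mean log2(TPM + 1), embryo 2 minus embryo 1, beside the pooled SD between cells. A gene entered the background with a mean above 1 TPM. No test was made, since each embryo is 1 replicate, and the depth behind TPM is unknown. The calculation was tested on simulated data. Of 55487 gene IDs, 55141 matched the annotation. Groups of copies used identical coding sequence in place of identical protein sequence, for which no table was at hand. Named were all H1 genes, the 4 highest members of each other class with their near-identical copies, members whose embryos did not overlap, members outside Hist1 above 1 TPM, and listed processing and chaperone genes that were of prior interest or differed by at least 1. Other members and genes were named after their values were seen. Members and lists were chosen with earlier results of these data known. Sequences were read with pysam 0.24.0, and values computed with pandas 2.3.3 and numpy 2.4.6 in Python 3.11.15. Alternatives covered the scaling, pseudocount, detection limit, transcript table, label ranges and each cell left out.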

Additional observations from a re-analysis of the deposited data

Results flagged for a closer look

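In embryo 2, 4 of 41 quantities held an outlying cell, with a distance to its closest neighbour over the whole range above Dixon's critical value of 0.625 for 6 cells, which chance gives in about 1 of 20. Hist1h4k was 53.7 TPM in cell 2 against 8.19 to 24.97 TPM in the other cells. Hist1h1e was 15.03 TPM in the same cell, against 2.42 to 6.94 TPM. Hist1h4m was 13.3 TPM and Hist2h3c1 was 10.5 TPM in cell 8, and both were listed at 0 in the 5 other cells. The last 2 genes each have a copy with identical coding sequence. A gene listed at 0 in 5 of 6 cells exceeds this critical value whatever its level in the remaining cell, so the chance rate does not apply to these 2.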

How the results depend on the processing

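No paired analysis was possible because the cells of the 2 embryos share cell numbers only as names, and no test was made. The differences of the summed TPM of all members and of the 5 classes kept their sign in the scalings and label ranges run, and changed it only for H3 when 1 cell was left out. Leaving out each cell in turn, the log2 difference ranged from 0.39 to 1.49 for all members, 0.021 to 1.04 for H1, 0.72 to 2.08 for H2a, 0.0013 to 0.93 for H2b, -0.12 to 1.13 for H3 and 0.17 to 1.10 for H4, each lowest without cell 7 of embryo 1. The median over members ranged from 0.0 to 0.80, and the number of members higher in every cell of embryo 2 from 1 to 5. That number was 30 within label numbers 011 to 017, where 1 cell meets 2. The number of members at least 1 higher, 15 as reported, ranged from 9 to 29 with each cell left out, that at least 1 lower from 2 to 5, and they were 32 at a pseudocount of 0.1 and 23 within label numbers 020 to 025 for higher, and at a pseudocount of 10 were 4 for higher and 0 for lower. Shares over all genes were computed only for the counts as reported and, for members at least 1 higher, without cell 1 or cell 7 of embryo 1. The other counts have no such share beside them and are not results about the members. Lsm10 turned to 0.042 within label numbers 011 to 017. These alternatives for counts of members, share differences, blocks, copy groups and listed genes were added after seeing the data. With medians of cells the difference for all members was 0.58 and for H2a 0.86. The mean number of members detected per cell was 39.3 above 1 TPM and 20.1 above 10 TPM. Without Hist1h2ap and Hist1h2ao, an alternative chosen after seeing the data, mean shares were 6.18% for H1, 27.3% for H2a, 32.8% for H2b, 11.1% for H3 and 22.6% for H4. Summing copies with 95% coding identity left 54 of 189 values at 0 (28.6%), against 173 of 558 (31.0%) for identical copies. With related pseudogenes and short genes added, also chosen after seeing the data, the H2a difference was 1.44. The spike-in scaling and the grouping by protein identity were not run. Only 2 embryos, TPM without depth, and reads divided among near-identical copies limit every value of a single gene.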

Other observations

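Some signal lay in annotated genes that share sequence with members but are not protein-coding. Hist1h2aj, annotated as a pseudogene, was 30.4 TPM in cell 3 and 34.9 TPM in cell 7 of embryo 2 and was listed at 0 in the other 7 cells. Gm44346, a short gene annotated as a miRNA, was 95.8, 140 and 16.6 TPM in cells 1, 6 and 7 of embryo 1. In embryo 2 it was 199.6 TPM in cell 8, 43.2 TPM in cell 5, 19.3 TPM in cell 3 and listed at 0 in the other 3 cells. TPM of so short a model is not on the same footing as that of a whole histone gene.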
